A study of Mus musculus with 2 samples.

Results

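The potassium channel genes described here were all genes whose symbol was Kcn, letters and a number, without the Kcna and Kcnc genes (the Kv1 and Kv3 families), and with at least 20 unique molecular identifiers (UMIs, each a captured RNA molecule) over all nuclei. This rule gave 74 of the 25556 genes counted. Just inside the minimum were Kcnk15 with 27 UMIs, Kcnj4 with 30 and Kcnn4 with 32. Another 5 symbols matched but stayed under it, namely Kcne4 with 18 UMIs, Kcnj15 with 8, Kcne3 with 7, Kcne1 with 4 and Kcnk16 with 2. The rule itself used the symbol and the total count, not the level by cell type or the ratio between genotypes. It was set with earlier results of these data known.

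The counts came from single-nucleus RNA sequencing of flash-frozen brainstem from 1 wildtype (WT) and 1 heterozygous (HET) mouse, both female, at postnatal day 41 and on a C57Bl6 background. The HET mouse (Scn1aA1783V/WT, a model of Dravet Syndrome) carried a missense loss-of-function allele of the sodium channel gene Scn1a. It came from a Scn1a floxed male and a Sox2-Cre female, and Sox2-Cre recombines throughout the embryo, so the allele is not limited to neurons. The WT mouse was a littermate with intact Scn1a, whose Cre status is not given in the sources used here. With 1 library per genotype there is no replicate check and no test was possible, so every interval below covers counting error only.

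Potassium channels set the resting potential of a cell, end each action potential and, in glia, take up potassium released by active neurons. Voltage-gated members open on depolarisation, calcium-activated members follow intracellular calcium, inward rectifiers (Kir) hold the membrane near the potassium potential, and tandem-pore (K2P) members carry background leak. Auxiliary subunits such as the KChIPs, the Kv beta subunits and the KCNE proteins bind the pore-forming subunits and alter their gating or transport.

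The WT library held 9259 nuclei with a median of 5456 UMIs and the HET library 9022 with a median of 5646, in 16 deposited clusters, 9 of them neuronal, and 23 cell barcodes occurred in both libraries. Cluster makeup differed between the libraries: neuron.6 had 120 WT and 5 HET nuclei, epend.2 (which held the choroid plexus markers) 108 and 6, and neuron.5 (granule cell markers) 42 and 332. Only 108 of 405 nuclei of the microglia cluster and 40 of 266 of the fibroblast cluster carried a deposited reference label that named the same type, so glial values below are from nuclei whose labels agreed unless a whole cluster is named. Choroid plexus markers were lower in HET even outside their own cluster, for example at 237 and 31.9 CPM in neuron.1, WT first. Scn1a was at 380.2 and 420.4 CPM (UMIs of a gene per 1000000 UMIs of that population), and these counts do not separate the alleles, so they do not check the genotype.

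Promoter sequences are shown for 5 members because each had its highest level in a non-neuronal cell type. They are from RefSeq (build GRCm38.p6), run from 250 bases before to 50 bases after an annotated start, and are written 5′ to 3′ on the strand of the gene. Capitals mark the strings CCAAT and TATAAA, searched on both strands, so that ATTGG and TTTATA also count. Kcnj10 (chr1:172340960-172341259, plus strand) encodes a glial inward rectifier and Kcnk13 (chr12:99964249-99964548, plus strand) a K2P channel. Kcnj8 (chr6:142571565-142571864, minus strand) encodes the pore of vascular ATP-sensitive channels. Kcne2 (chr16:92292139-92292438, plus strand, 1 of its 2 listed starts) encodes a KCNE subunit and Kcnj13 (chr1:87394680-87394979, minus strand) an epithelial inward rectifier.
Kcnj10: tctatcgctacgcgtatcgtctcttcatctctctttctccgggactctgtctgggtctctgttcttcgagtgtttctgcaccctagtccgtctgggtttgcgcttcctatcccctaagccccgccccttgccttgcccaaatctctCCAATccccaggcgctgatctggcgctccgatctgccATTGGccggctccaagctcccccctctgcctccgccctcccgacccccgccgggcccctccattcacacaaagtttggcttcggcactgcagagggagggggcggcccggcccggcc
Kcnk13: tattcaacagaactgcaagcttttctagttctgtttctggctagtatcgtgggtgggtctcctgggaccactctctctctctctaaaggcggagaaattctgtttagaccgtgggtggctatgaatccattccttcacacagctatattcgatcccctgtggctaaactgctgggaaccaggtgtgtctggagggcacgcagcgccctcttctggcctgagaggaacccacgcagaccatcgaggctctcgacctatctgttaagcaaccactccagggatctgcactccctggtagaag
Kcnj8: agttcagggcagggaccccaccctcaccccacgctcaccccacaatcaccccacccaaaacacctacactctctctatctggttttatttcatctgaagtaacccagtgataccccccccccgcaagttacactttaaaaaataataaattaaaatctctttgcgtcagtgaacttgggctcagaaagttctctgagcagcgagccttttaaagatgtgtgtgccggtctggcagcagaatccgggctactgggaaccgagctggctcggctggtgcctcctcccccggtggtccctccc
Kcne2: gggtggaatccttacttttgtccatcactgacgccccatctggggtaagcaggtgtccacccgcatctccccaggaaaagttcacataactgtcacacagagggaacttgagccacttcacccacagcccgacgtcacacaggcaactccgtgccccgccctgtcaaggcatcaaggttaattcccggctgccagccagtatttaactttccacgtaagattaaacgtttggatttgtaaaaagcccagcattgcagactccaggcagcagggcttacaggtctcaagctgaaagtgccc
Kcnj13: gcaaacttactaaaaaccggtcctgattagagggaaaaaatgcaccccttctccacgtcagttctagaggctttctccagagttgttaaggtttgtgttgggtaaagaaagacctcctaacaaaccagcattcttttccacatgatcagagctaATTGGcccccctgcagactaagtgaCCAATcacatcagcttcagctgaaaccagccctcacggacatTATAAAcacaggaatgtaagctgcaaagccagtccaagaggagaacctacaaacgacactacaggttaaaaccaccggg

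The Kcnj10 window held 2 CCAAT matches, the Kcnj13 window 2 CCAAT matches and 1 TATAAA match, and the windows of Kcnk13, Kcnj8 and Kcne2 neither string. Over the 32851 promoters of this length in the RefSeq table, 37.4% held CCAAT and 13.6% TATAAA. Of the 73 listed promoters of the 52 members matched by symbol, 31.5% held CCAAT and 5.48% TATAAA. A match is a string in this window and not a shown binding site.

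The 74 genes carried 1.03% of all UMIs, and 58 of them had at least 200 UMIs. In pairs of values the WT library is given first. The KChIP gene Kcnip4 (3121 and 3589 CPM) and its pore-forming partner Kcnd2 of the A-type Kv4 family (1603 and 1844 CPM) had the most UMIs. Long genes give more nuclear UMIs, so levels between genes were compared per 10 kb of gene. On that scale Kcnj13 was highest at 38.6 CPM per 10 kb, followed by Kcnd2 at 33.4, Kcnip4 at 29.5, the sodium-activated channel gene Kcnt1 at 23.7 and the beta subunit gene Kcnab3 at 23.0. The lowest levels per 10 kb were those of Kcnj4 (0.102), Kcnn4 (0.143) and Kcnj5 (0.151). A gene overlapped 17 members on the same strand and 32 on the opposite strand, and whether counting used strand is not given in the sources used here, so reads of such pairs cannot be told apart. This limit holds for the first rank of Kcnj13, which is 8.37 kb long. It lies within Gigyf2 on the opposite strand, at 139.9 CPM over both libraries.

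**Figure D1:**
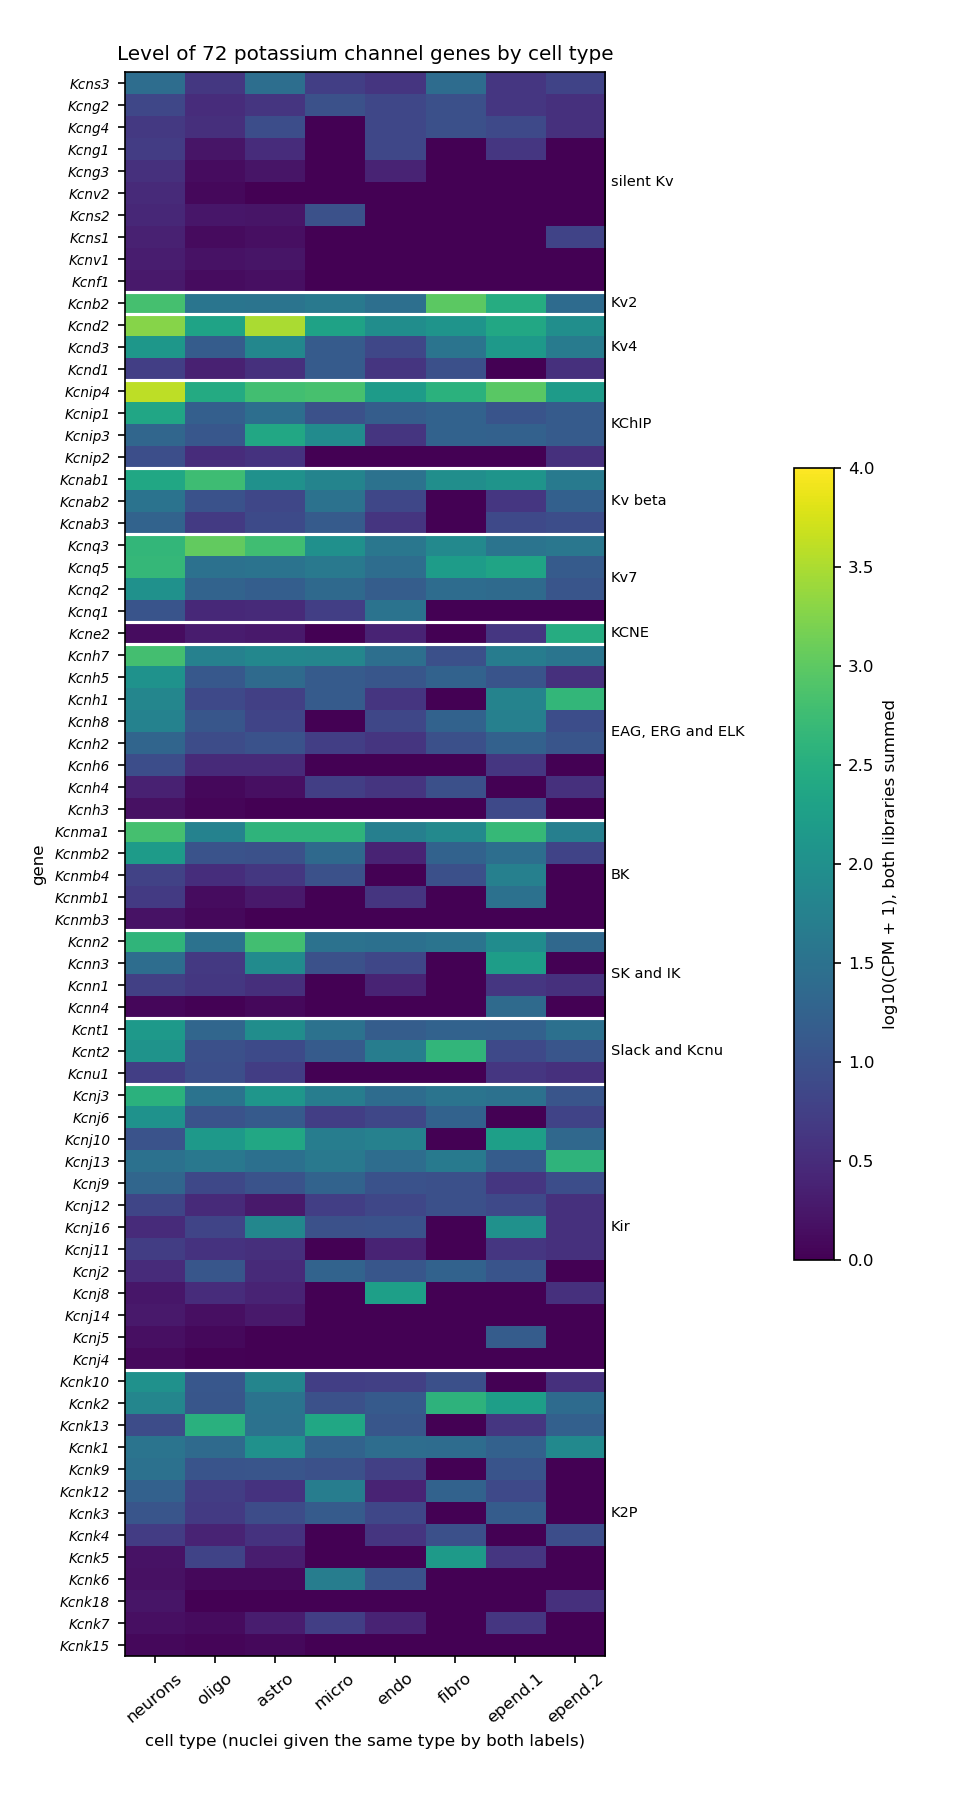
Level of 72 of the genes (vertical, grouped by subfamily) in 8 cell types (horizontal), as log10 of CPM plus 1 with both libraries summed, over nuclei whose labels agreed. Kcnj8 stands out in endo, Kcne2 and Kcnj13 in epend.2, and Kcnk13 in oligo and micro.

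Among the voltage-gated pore genes, the Kv2 delayed rectifier Kcnb2 was at 681 and 635 CPM in neuronal nuclei and Kcnd2 at 1761 and 2053 CPM. The 10 silent genes (Kcnf, Kcng, Kcns and Kcnv), whose products conduct only in complexes with Kv2 subunits, were sparse, from 109 UMIs for Kcnf1 to 3131 for Kcns3. Kcnq3, a subunit of the M-current channels of the Kv7 family, led its family at 490.4 and 539.8 CPM over all nuclei, and the ERG gene Kcnh7 led the EAG, ERG and ELK group at 533 and 561 CPM.

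Calcium- and sodium-activated channels came next. Kcnma1, the pore of the big-conductance (BK) channel, was at 529 and 633 CPM. The small-conductance channel gene Kcnn2, which shapes the afterhyperpolarisation, was at 352 and 392 CPM. Among rectifiers, the G-protein-gated subunit Kcnj3 had the most UMIs, at 285 and 340.1 CPM, and among K2P genes Kcnk10, at 89.9 and 93.9 CPM.

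Of the 74 genes, 29 had their highest level in neurons, 8 in astrocytes, 4 in oligodendrocytes and the other 33 in smaller types, several of them from few UMIs. Over whole clusters only 19 were highest in neurons. RNA from broken cells can reach any nucleus, so glial levels were read against neuronal genes there: Rbfox3, Snap25, Syt1, Slc17a6 and Slc32a1 stood at 8.56% to 79.5% of their neuronal level in oligodendrocytes and at 7.75% to 75.6% in astrocytes. At or under the upper end of these ranges lay 63 of the 74 channel genes in oligodendrocytes and 52 in astrocytes. The clusters were made from these same counts, so contrasts between cell types are descriptions.

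Oligodendrocytes had 9 members at least 1.5-fold over neurons with an interval that excluded equality. The share of all genes that pass the same limits is not given here, so this count does not set the members apart from other genes. Kcnk13 was at 351 and 332 CPM there, beside 7.48 CPM in neurons, 45.5-fold less. A Kcnk13 UMI was found in 56.4% of oligodendrocytes (median 2807 UMIs per nucleus) and 5.92% of neuronal nuclei (median 8055), and in 27.0% and 0.916% after thinning to 1000 UMIs. Kcnq3 stood at 1050.4 and 1097 CPM, 2.39-fold over neurons, and the beta subunit gene Kcnab1 at 504 and 611 CPM, 2.35-fold over neurons. The inward rectifier genes Kcnj10 (15.4-fold) and Kcnj2 (5.15-fold) were also higher than in neurons. Each of these 5 genes was above its neuronal level in both libraries.

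Astrocytes were high in the rectifier pair known from their membranes. Kcnj10, through which astrocytes take up potassium, was at 228 and 266 CPM, 26.3-fold over neurons, and its partner Kcnj16 at 71.0 and 69.1 CPM, 33.8-fold over neurons. Kcnj16 was at 104 CPM over both libraries in epend.1 nuclei with agreeing labels, from 26 and 5 UMIs. A Kcnj10 UMI was found in 53.0% of astrocytes and 8.40% of neuronal nuclei, and in 22.0% and 1.22% after thinning. Kcnip3, a KChIP also known as a transcriptional repressor, was at 311 and 199.9 CPM, 12.3-fold over neurons. Smaller excesses were seen for Kcnk13 (4.19-fold), Kcnn3 (3.23-fold) and the leak channel gene Kcnk1 (3.11-fold). Kcnd2, best known for neuronal A-type current, was at 2886 and 3326 CPM in astrocytes, 1.65-fold over neurons.

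Other channels led in vascular and meningeal nuclei. In endothelial nuclei Kcnj8 was at 210.2 and 65.2 CPM, 240.2-fold over neurons, and its regulatory partner Abcc9 at 214 and 101 CPM. Both are textbook pericyte genes, and the mural markers Rgs5, Pdgfrb and Vtn summed to 4583 and 1711 CPM in these nuclei. In the fibroblast cluster the mechanosensitive leak channel gene Kcnk2 was at 557 and 429.8 CPM, 7.26-fold over neurons, and the alkaline-sensitive Kcnk5 at 19.6 and 86.0 CPM. In its 40 nuclei with agreeing labels Kcnk2 was again at least 1.5-fold over neurons with an interval that excluded equality. Kcnk5 did not pass these limits there, although its level was still highest in that type. The 108 microglia with agreeing labels had Kcnk13 at 219.9 and 258 CPM, 32.6-fold over neurons and below its oligodendrocyte level, while Kcnk6 in them rested on 5 and 6 UMIs.

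Ventricular clusters separated along the same lines. In epend.2, Kcne2, a subunit known from choroid plexus epithelium, was at 293 and 166 CPM (116 and 4 UMIs), beside 0.382 CPM in neurons. Kcnj13, known from the same epithelium, was at 378 and 373 CPM, and the EAG gene Kcnh1 at 421 and 332 CPM, 6.14-fold over neurons. The epend.1 cluster instead had Kcnj16 at 91.8 and 22.0 CPM, Kcnj10 at 115 and 114 CPM and Kcnn3 at 104 and 96.9 CPM.

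**Figure D2:**
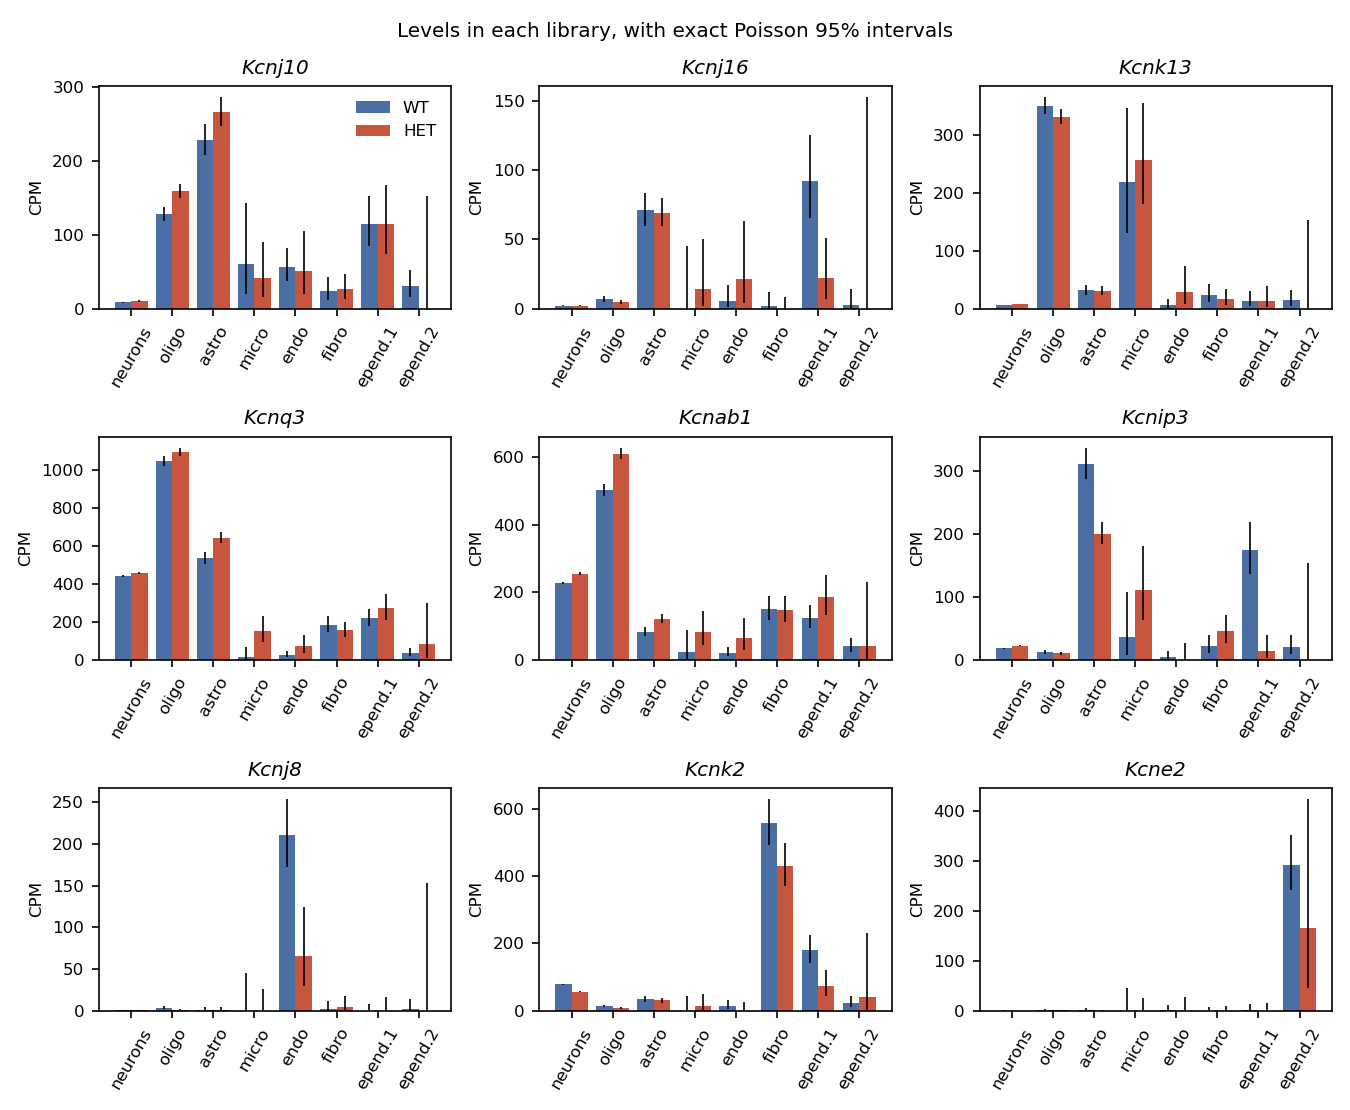
CPM of 9 genes (1 panel each) in WT and HET nuclei by cell type, with exact Poisson 95% intervals; oligo, astro, micro and endo are nuclei whose labels agreed and the rest whole clusters. Kcnk13 is high in oligo and micro in both libraries, whereas Kcnj8 in endo and Kcnip3 in astro are lower in HET.

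The neuronal clusters differed in their channels as well. Neuron.5, which held the granule cell markers Gabra6 and Cbln3, had Kcnd2 at 9245 and 8530.5 CPM and Kcnip4 at 6206 and 8953 CPM. The K2P gene Kcnk12 was 5.75-fold and Kcnmb4, the neuronal BK beta subunit, 7.85-fold over the other neurons there. Neuron.2 was led by Kcng2 (10.5-fold) and the ELK gene Kcnh8 (9.80-fold, 354 and 481 CPM). Neuron.3 was led by Kcnk5 (38.5-fold, from 12 and 29 UMIs). Neuron.4 had Kcnip3 at 82.0 and 79.4 CPM and the G-protein-gated Kcnj6 at 129.9 and 265 CPM.

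Neuron.6, with 5 HET nuclei, had the silent gene Kcng1 at 105 CPM over both libraries, 40.2-fold over other neurons, beside 2165 CPM of its possible Kv2 partner Kcnb2. Kcnj12 (8.68-fold) and Kcnip2 (8.04-fold) were also high in neuron.6. Neuron.7, which held the serotonergic markers Tph2 and Slc6a4, had Kcnn3 at 165 CPM, 6.60-fold over other neurons, and the acid-sensitive leak gene Kcnk9 at 70.3 CPM. Neuron.8, with the cholinergic markers Chat and Slc5a7, had Kcnmb4 (7.16-fold), the silent gene Kcng4 (5.00-fold) and Kcnk9 (3.19-fold). In the large cluster neuron.1 the leading members were Kcng3 (3.64-fold) and Kcnf1 (3.53-fold), both silent genes. In neuron.9, with 37 nuclei, only Kcnh7, Kcnd2 and Kcnip4 reached 20 UMIs. They stood at 0.839-fold, 0.113-fold and 0.0626-fold of the other neurons, and the other members were not compared there.

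A split by transmitter used neuronal nuclei with 5 or more UMIs of glutamatergic or inhibitory genes in which that class also exceeded its counterpart by 5 times or more, which gave 359 glutamatergic and 1892 inhibitory nuclei and 65 comparable members. A call here and below means at least 1.5-fold with a 95% interval that excludes equality. Called higher in glutamatergic nuclei were 6 members (5.44% of all genes) and in inhibitory nuclei 9 (6.52% of all genes). Kcnip3 was at 28.4 and 11.9 CPM in glutamatergic and inhibitory nuclei, with a log2 ratio of 1.18 in WT and 1.39 in HET. On the inhibitory side, the BK subunit gene Kcnmb2 was at 108 and 207 CPM, Kcns3 at 20.9 and 37.2 CPM, and the Kv2 gene Kcnb2 at 451 and 707 CPM. Some of these contrasts were under 1.5-fold in 1 library. Log2 ratios in WT and HET were -0.24 and -1.05 for Kcnb2, -0.36 and -1.11 for Kcnt2, and -1.07 and -0.31 for Kcnab3. Kcnb2 was at 588 and 351 CPM in glutamatergic and 696 and 724 CPM in inhibitory nuclei, WT first. It was at 2165 CPM in neuron.6, which had 120 WT and 5 HET nuclei. The part of cluster makeup in these differences between libraries was not tested. All 9 inhibitory-side members had that direction in both libraries, against 4 of the 6 on the other side. Kcng2 was 1 of the exceptions, with log2 ratios of 1.72 in WT and -0.03 in HET.

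Between genotypes, 36 of the 74 genes were higher and 38 lower in the HET library over all nuclei, with a median log2 ratio (HET over WT) of -0.04 beside -0.09 for all genes tested. Called higher were 3 (Kcnj13, Kcnk18 and Kcnk5; 9.04% of all genes) and called lower 7 (among them Kcne2, Kcnf1, Kcng1, Kcnip2, Kcnj8 and Kcnk7; 13.6% of all genes). When ratios were centred on the median of genes counted 200 times or more (-0.10) in place of 0, 6 were called higher and 6 lower (11.2% and 9.91% of all genes). Among genes with at least 200 UMIs, 1 member was called higher (6.29% of such genes) and 4 lower (12.7% of such genes). The abundant channels were close to equality, with log2 ratios of -0.15 for Kcnb2, 0.20 for Kcnd2, 0.20 for Kcnip4, 0.14 for Kcnq3 and 0.26 for Kcnma1. In neuronal clusters together 2 members were called higher (9.19% of all genes) and 7 lower (12.4% of all genes), and 4 and 5 when centred in the same way (11.1% and 9.06% of all genes). In sums over many nuclei, fewer cells of a type and less RNA per cell cannot be told apart, so the called genes were also compared within clusters.

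**Figure D3:**
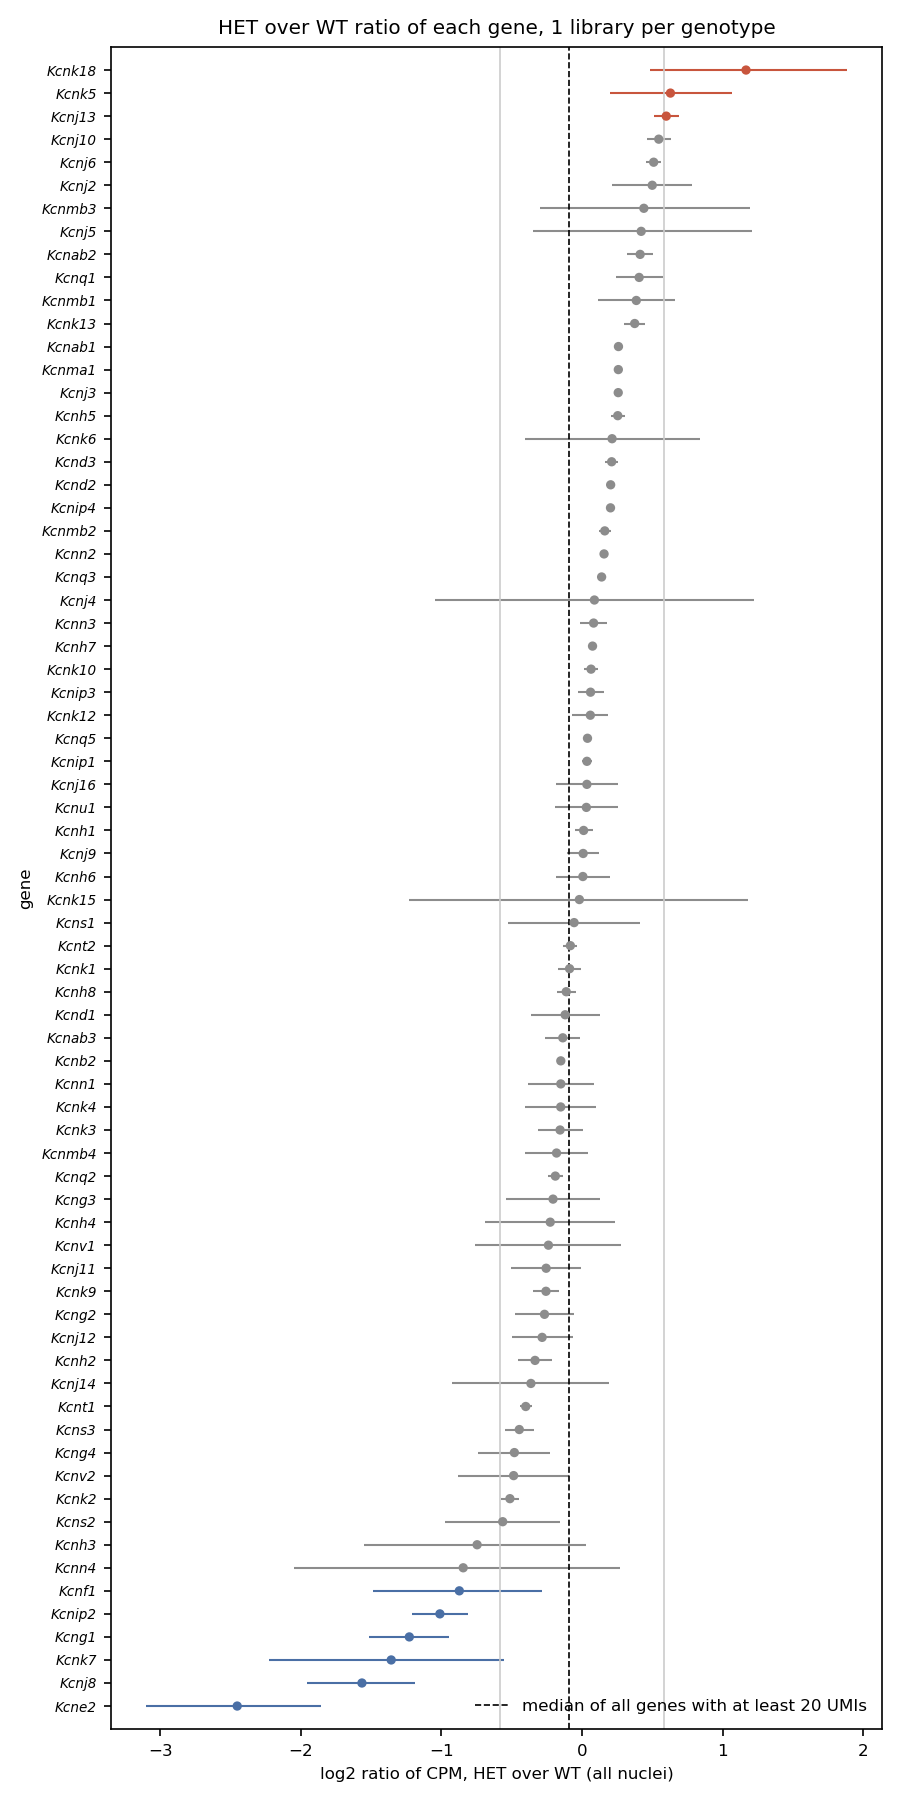
Log2 ratio of CPM, HET over WT (horizontal), of 72 of the genes over all nuclei, with exact binomial 95% intervals. Red marks the 3 genes called higher and blue 6 called lower, grey lines mark 1.5-fold and the dashed line the median of all genes, -0.09.

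Kcne2 had 157 and 27 UMIs, a log2 ratio of -2.45 (95% interval -3.10 to -1.86), of which 116 and 4 UMIs were in epend.2. The choroid plexus marker Ttr was at 393 and 42.4 CPM. Within neuron.1 the ratio of Kcne2 was -0.03 (-1.16 to 1.08). Kcng1 was at 5.06 and 2.16 CPM, a ratio of -1.23, but at -0.07 (-0.45 to 0.31) within neuron.1. Without the clusters that had under 30 nuclei in a library, neuron.6 and epend.2 among them, the ratio over all nuclei was -0.22 for Kcng1 and -0.63 for Kcne2.

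Kcnj8 was lower in HET in vascular nuclei as well as in sums. Its log2 ratio was -1.57 over all nuclei (239 and 76 UMIs), -1.14 in the endothelial cluster and -1.69 in its nuclei with agreeing labels (107 and 9 UMIs). In the latter the 3 mural markers, each lower in HET, had a summed ratio of -1.42, while the endothelial markers summed to 6658 and 6828 CPM. In neuron.1 the ratio of Kcnj8 was -1.37 and in oligodendrocytes -1.43, where mural markers summed to 13.8 and 6.94 CPM and to 39.3 and 17.5 CPM. The part of mural cells in these values was not tested.

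Kcnip2, a KChIP, was at 9.26 and 4.59 CPM, a log2 ratio of -1.01 (-1.21 to -0.81). It was lower in HET in each of the 4 neuronal clusters compared, with ratios of -0.74 in neuron.1, -0.27 in neuron.2, -2.62 in neuron.3 and -0.93 in neuron.4, although the intervals of neuron.2 and neuron.4 included equality. In inhibitory nuclei it was at 10.7 and 4.05 CPM (171 and 43 UMIs) and in glutamatergic nuclei at 11.0 and 2.66 CPM (33 and 11 UMIs). The lower level was found on both sides of the transmitter split. These sets draw on all neuronal clusters, whose makeup differed between the libraries. In neuron.6 (120 WT and 5 HET nuclei) Kcnip2 was 8.04-fold over other neurons. The part of cluster makeup in the values by transmitter was not tested.

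Kcnj13 was at 25.8 and 39.1 CPM, a log2 ratio of 0.60 (0.51 to 0.69). It was higher in HET in all 6 neuronal clusters compared, by 0.47 to 0.82, and had ratios of 0.69 in astrocytes and 0.50 in oligodendrocytes. In the fibroblast cluster it was lower, at -1.07 from 30 and 13 UMIs. Its level was 30.2 CPM in neurons, 38.4 CPM in oligodendrocytes and 29.1 CPM in astrocytes. Kcnj13 was called over neurons in the fibroblast cluster as a whole, but not in its nuclei with agreeing labels. The gene lies within Gigyf2 on the opposite strand, and Gigyf2 was at 143 and 136 CPM with a ratio of -0.08.

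The other called genes named above were sparse. Kcnk18 had 27 and 57 UMIs, Kcnk7 49 and 18 UMIs and Kcnf1 72 and 37 UMIs. Kcnk5 had 77 and 112 UMIs, of which 9 and 36 UMIs were in the fibroblast cluster, where its log2 ratio was 2.13 (1.05 to 3.37), while in oligodendrocytes it was -0.51 (-1.22 to 0.20).

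By subfamily, all 10 silent genes were lower in HET, with a median log2 ratio of -0.46 and a range from -1.23 (Kcng1) to -0.06 (Kcns1), although only Kcng1 and Kcnf1 were called. These are sums over all nuclei. Within neuronal clusters, Kcns3 was higher in 2 of 4 and called higher in 1, neuron.3 (0.75). Kcng2 was higher in 1 of 3 and called lower in neuron.3 (-1.23). Kcng4 was higher in 1 of 2 and called lower in neuron.1 (-0.64), and Kcnv1 was at 0.03 in neuron.1. The remaining 6 could be compared in neuron.1 alone, with ratios from -0.82 (Kcnf1, called lower) to -0.0049 (Kcng3). Kcns3, the most abundant, was at 26.3 and 19.3 CPM. The Kv2 gene Kcnb2 had a ratio of -0.15. Of the 13 Kir genes 9 were higher in HET, among them Kcnj10 (0.54), Kcnj6 (0.51) and Kcnj2 (0.50), and of the 5 BK genes 4 were. The ratio of Kcnj10 was 0.22 within astrocytes, which were 6.31% of WT and 7.80% of HET nuclei, and 0.31 within oligodendrocytes, which were 19.0% and 26.3%. Kcnt1 (146 and 111 CPM) and Kcnk2 (73.7 and 51.6 CPM) were lower by under 1.5-fold.

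Gene length moved with these ratios. The median log2 ratio of all genes ran from -0.28 under 10 kb to 0.14 from 300 kb, and that of the members from -0.26 (13 genes, 2 higher in HET) to 0.07 (13 genes, 10 higher). Members had a median length of 45.6 kb against 20.3 kb for all genes. The silent genes spanned 4.79 kb (Kcnf1) to 69.7 kb (Kcng2), a range in which the median of all genes was below 0 in each length bin. The part of length in the ratios was not tested.

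**Figure D4:**
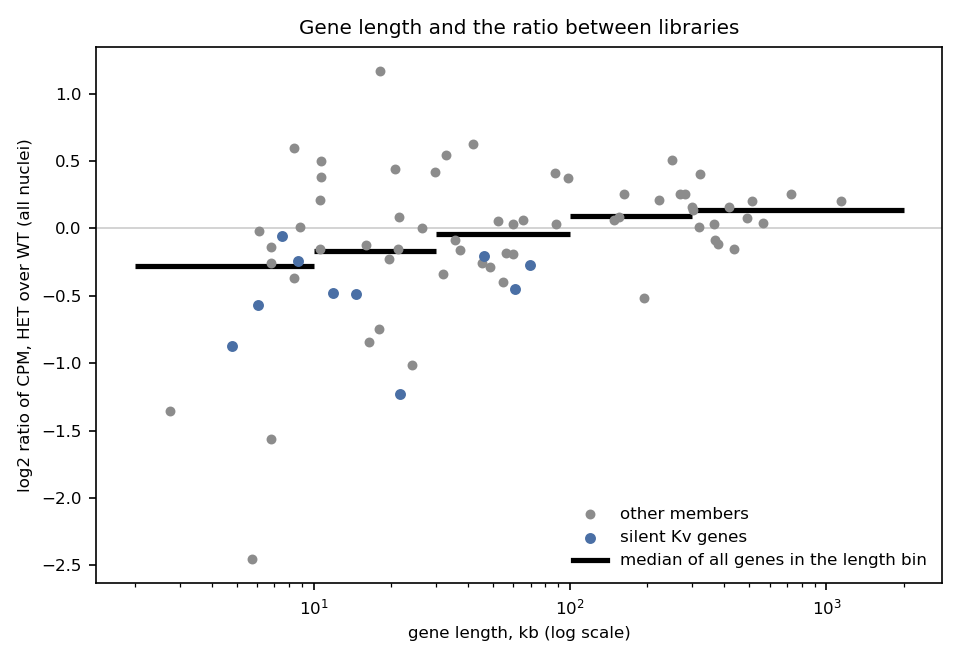
Log2 ratio of CPM, HET over WT (vertical), against gene length in kb (horizontal, log scale) for 72 of the genes, with silent genes in blue. Black bars are the medians of all genes in 5 length bins, from -0.28 to 0.14, and all 10 silent genes lie below 0.

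The ratios were also taken within single neuronal clusters. In neuron.1, with 70 members compared, 4 were called higher (8.13% of all genes) and 6 lower (12.2% of all genes). In neuron.2 there were 2 higher (4.17% of all genes) and 2 lower (10.9% of all genes) of 47. Neuron.3 had 5 higher (7.15% of all genes) and 6 lower (9.7% of all genes) of 48, and its Kcnd2 was at 247 and 720.2 CPM, a log2 ratio of 1.54 (1.39 to 1.70). In neuron.3 the granule cell markers summed to 0.607 and 7.33 CPM, the glutamatergic markers to 57.7 and 116 CPM and the inhibitory markers to 384 and 265 CPM, and their part in its ratios was not tested. Neuron.4 had 7 higher (5.81% of all genes), among them Kcnj6 at 129.9 and 265 CPM, and 2 lower (10.2% of all genes) of 47. Neuron.5 had 2 higher (4.07% of all genes) and 2 lower (4.86% of all genes) of 36. In neuron.7, the serotonergic cluster, 4 of 23 were higher (4.65% of all genes), among them Kcnq3 at 524 and 922 CPM, and 0 lower (7.22% of all genes).

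Directions were also compared across clusters. Of 54 members examined with a ratio in at least 2 clusters of any type, 8 were called higher in 1 and lower in another (4.02% of all genes so compared). Of 43 members with a ratio in at least 4 of the 6 neuronal clusters compared, 6 were higher in HET in each (Kcnab1, Kcnh5, Kcnj13, Kcnj6, Kcnq3 and Kcnt2) and 3 lower in each (Kcnip2, Kcnk1 and Kcnk9), where 10.8% of all genes were higher and 21.2% lower in each. Ratios of Kcnk9 ran from -0.79 to -0.04 and those of Kcnk1 from -0.24 to -0.14. Those of Kcnq3 ran from 0.02 to 1.17.

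In the oligodendrocyte cluster 53 members were compared, with a median log2 ratio of 0.28 beside -0.10 for all genes, and 10 were called higher (7.67% of all genes) and 3 lower (12% of all genes). Centred on the median of well-counted genes, these were 14 and 2 (9.91% and 8.29% of all genes). In nuclei with agreeing labels 10 were also called higher, namely Kcnd2, Kcnh5, Kcnh7, Kcnip1, Kcnip4, Kcnj6, Kcnk10, Kcnma1, Kcnq5 and Kcnt2, and each was at only 6.57% to 10.8% of its neuronal level there. Kcnip4, for example, was at 182 and 354 CPM. The 9 members above their neuronal level gave 0 called higher and a median of -0.08, with Kcnk13 at -0.08, Kcnq3 at 0.06, Kcnab1 at 0.28 and Kcnj10 at 0.31. In the same nuclei all 3 neuronal markers were higher in HET, summing to 233 and 307 CPM, both granule cell markers were higher, with a summed ratio of 1.89, and the inhibitory markers summed to 86.3 and 68.4 CPM. The part of neuronal RNA in these ratios was not tested.

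In astrocytes with agreeing labels 40 members were compared, of which 7 were called higher (5.31% of all genes) and 2 lower (12.1% of all genes), the same numbers as in the whole cluster (4.96% and 12.6% of all genes). In that cluster edgeR's TMM scaling gave 9 and 1 (6.99% and 9.28% of all genes). Kcnb2, Kcnh5, Kcnip1, Kcnip4 and Kcnj6 were called higher at 5.18%, 21.1%, 11.9%, 15.5% and 11.6% of their neuronal level, and the neuronal markers there summed to 199.8 and 289.9 CPM. Kcnn2 was at 431 and 760.3 CPM, a log2 ratio of 0.82 (0.70 to 0.94). With both libraries summed it was 1.50-fold over its neuronal level, with most of its UMIs from HET (857 and 1959). In the whole astrocyte cluster it was not called over neurons. Kcnip3, called lower at -0.64 (-0.81 to -0.47), was above its neuronal level. The 3 astrocyte markers summed to 2934 and 3923 CPM.

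**Figure D5:**
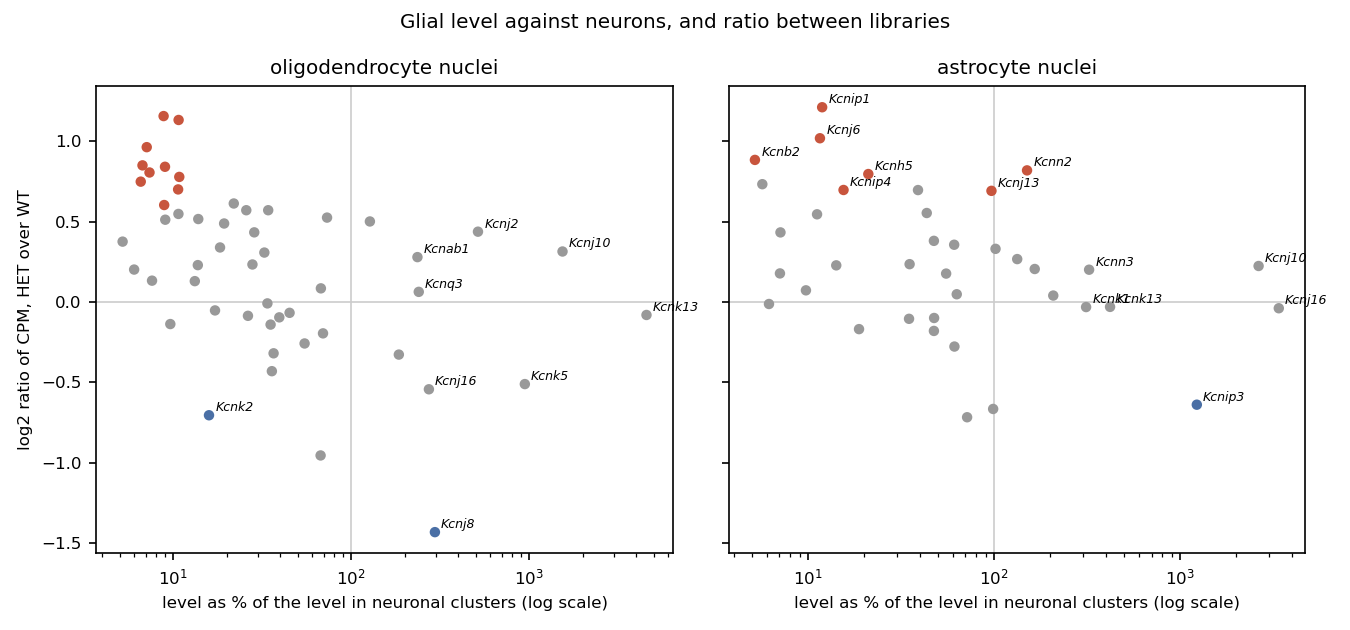
Log2 ratio of CPM, HET over WT (vertical), against the level as a percentage of the neuronal level (horizontal, log scale) in oligodendrocytes and astrocytes whose labels agreed. Red points are called higher and blue points lower; the 10 red points in oligodendrocytes lie between 6.57% and 10.8%.

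In the endothelial cluster 14 of 20 members were called higher (12.1% of all genes) and 1, Kcnj8, lower (14.4% of all genes), and its neuronal markers summed to 281 and 593 CPM. Labels agreed for 161 of its 222 WT nuclei but for 48 of its 122 HET nuclei. In those nuclei 5 of 9 members were called higher (519 of 6393 genes) and 1 lower (557 of 6393 genes). The microglia cluster had 4 of 37 higher (5% of all genes), Kcnd2, Kcnip3, Kcnip4 and Kcnj6, and 2 lower (9.54% of all genes), while its neuronal markers summed to 1221 and 1636 CPM and its granule cell markers to 4.53 and 21.9 CPM. The fibroblast cluster had 4 of 23 higher (6.66% of all genes) and 2 lower (6.68% of all genes). In epend.1, 6 of 28 were higher (7.99% of all genes), namely Kcnh7, Kcnip4, Kcnj3, Kcnma1, Kcnmb2 and Kcnn2, and 7 lower (11.9% of all genes). Among the lower genes were Kcnip3 at 174 and 13.2 CPM, Kcnt2 at 132 and 13.2 CPM and Kcnj16 at 91.8 and 22.0 CPM. Neuronal markers in epend.1 summed to 548 and 889 CPM and oligodendrocyte precursor markers to 562 and 26.4 CPM. The part of these markers' cell types in the ratios of the endothelial, microglia and epend.1 clusters was not tested.

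Of 31 listed partner genes of these channels (auxiliary subunits, anchors and scaffolds), 30 could be compared over all nuclei, 0 were called higher and 2 lower (9.04% and 13.6% of all genes), and the median log2 ratio was -0.02. The 2 were Calm2, a calmodulin gene, and Gng3, a G-protein gamma subunit gene. Of 27 compared in the oligodendrocyte cluster, 3 were called higher (Dpp6, Abcc8 and Gnb5; 7.67% of all genes) and 3 lower (12%). Of 27 in the astrocyte cluster, 1 was called higher (Dpp10; 4.96%) and 3 lower (12.6%). The Kv4 partners Dpp6 and Dpp10 were at 1317 and 1562 CPM and at 2161 and 2242 CPM in neuronal nuclei.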

How the data were processed

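Brainstem nuclei were sequenced with 10x 3′ chemistry, 1 library per genotype. Per the labels and methods, the authors aligned reads to mm10 with Cell Ranger and filtered nuclei and genes with Seurat 4.1; they deposited UMI counts per gene and nucleus, cluster names, a reference label and a doublet score. Intron counting and any correction for free RNA are not given in the sources used here. Counts were summed here per library and population and divided by total UMIs (CPM). Ratios have exact conditional binomial and levels exact Poisson 95% intervals (scipy 1.17.1), which cover counting error only. Genes needed 20 UMIs in a population and clusters 30 nuclei in each library. Genes named first were the member with most UMIs of each subfamily, the 6 largest and 6 smallest ratios among members with 200 UMIs, and the 2 leading members of each cluster; others named were chosen after their values were seen. Members and lists were chosen with earlier results of these data known. edgeR 4.0.16 and DESeq2 1.42.0 gave scaling factors only. No doublet caller was run here, and leaving out nuclei with the 5% highest deposited scores was an alternative. The ratio calculation was tested on simulated counts. Gene lengths are from GENCODE on GRCm38. Values of 2 members are not reported here, although they count among the 74.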

Additional observations from a re-analysis of the deposited data

Results flagged for a closer look

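In 8 of the 54 members examined with a ratio in at least 2 clusters, the gene was called higher in HET in 1 cluster and lower in another (4.02% of all genes with such ratios); the difference between the clusters was not tested, and several values rest on few UMIs. Kcnd2 had log2 ratios of 1.76 in the endothelial cluster and -0.70 in epend.1. Kcnh5 was at 1.10 in the oligodendrocyte and -1.03 in the microglia cluster. Kcnh7 was at 2.28 in epend.1 and -0.65 in neuron.5. Kcnip1 was at 2.72 in the endothelial cluster and -1.52 in epend.1. For Kcnip3 the values were 0.92 in the microglia cluster and -3.72 in epend.1, where 74 WT and 3 HET UMIs were counted. Kcnj13 was at 1.43 in the endothelial and -1.07 in the fibroblast cluster. Kcnmb4 was at 2.12 in neuron.4, from 2 and 22 UMIs, and -3.34 in epend.1, from 19 and 1. Kcnt2 was at 1.21 in neuron.7 and -3.32 in epend.1.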

How the results depend on the processing

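No paired analysis was possible because each genotype has 1 library, so the libraries share a single replicate number, and no replicate could be left out. Of 41 ratios of single genes, 27 kept their call under every alternative run, and 0 called values reversed. Part of this was fixed in advance. The minimum of 200 UMIs keeps a gene's own ratio and interval, so it could not change a call. The changes of scale (median set to 0, TMM and DESeq2 factors) were too small to reverse a ratio past 1.5-fold. Percentages in brackets are the shares of all genes called under the same setting. Over all nuclei, 3 members were called higher and 7 lower (9.04% and 13.6%). After setting the median of well-counted genes (200 UMIs or more) to 0 the list's median became 0.065 and 6 were higher (11.2%). DESeq2 size factors gave 5 higher (10.6%), and 58 members with at least 200 UMIs gave 1 higher and 4 lower (6.29% and 12.7%). In neuronal clusters the same settings gave 4 higher with the median set to 0 (11.1%), and 1 higher and 4 lower among 56 members with at least 200 UMIs (6.08% and 11.7%). In the oligodendrocyte cluster (10 higher, 3 lower), 17 members with at least 200 UMIs gave 6 higher and 0 lower (5.24% and 11.6% of such genes), the median set to 0, TMM and DESeq2 factors each gave 14 higher and 2 lower, nuclei with at least 2000 UMIs 1 lower, nuclei without the 5% highest doublet scores 6 lower and the mean over nuclei of CPM 5 lower. In the astrocyte cluster (7 higher, 2 lower), 17 members with at least 200 UMIs gave 2 higher (4.52% of such genes), and 1 was lower with the median set to 0, with TMM, with DESeq2 factors and with nuclei of at least 2000 UMIs. Members highest in neurons numbered 29 in nuclei with agreeing labels against 19. A higher minimum left fewer genes to compare. The share of members called higher went from 4.05% to 1.72% over all nuclei and from 18.9% to 35.3% in the oligodendrocyte cluster. The cause of the shifts was not tested. Leaving out clusters with under 30 nuclei in a library was chosen after seeing the data. At this depth members with few UMIs have wide intervals, as for Kcnj4 (30 UMIs, interval -1.05 to 1.22).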
